A study of Mus musculus with 28 samples.

Results

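Genes of 3 enzyme families that modify foreign chemicals and endogenous lipids, the cytochromes P450, the UDP-glucuronosyltransferases (UGTs) and the sulfotransferases (SULTs), were followed in mouse 3LL (Lewis lung carcinoma) cells and in tumors grown from them. Members were the rows of the expression table whose symbol begins with Cyp, Ugt or Sult and a digit, apart from the sterol synthesis gene Cyp51, with a value of at least 3.17 in 4 or more of the 28 libraries. Values are log2(normalized count + 4), so 2 means no read and the threshold corresponds to 5 normalized counts. Of 43143 rows, 18509 carry a symbol, and a row without one could not match, whatever its gene. By name 33 rows matched and 30 passed: 21 P450s, 7 UGTs, of which 6 belong to the Ugt1a locus, and 2 SULTs. The rows just inside the threshold were Cyp26c1 and Cyp2d22 (4 libraries each) and Cyp24a1 (5 libraries), and those just outside were Cyp2c55 and Cyp39a1 (3 libraries each) and Cyp7b1 (1 library). The members include 17 rows with a gene identifier and 13 rows with a transcript identifier (transcript rows). Whether a gene row sums all transcripts of its gene was not checked. By GENCODE vM21, 5 of the transcript rows are retained introns (Cyp20a1, Cyp27a1, Cyp2d22, Cyp4f13 and Ugt1a6a), 3 are targets of nonsense-mediated decay (Cyp27b1, Cyp46a1 and Cyp4f16) and 2 are processed transcripts without a coding sequence (Cyp2u1 and Cyp4f41-ps).

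The study compared 7 groups of 4 libraries. Cultured 3LL cells were wild type (WT), KEAP1-KO (Keap1 disrupted in exon 2 by CRISPR-Cas9) or KEAP1-NRF2 double knockout (DKO, made from the KEAP1-KO cells by disrupting exon 5 of the NRF2 gene, Nfe2l2), and both edited lines were expanded from single colonies. Cells were injected under the skin of male albino C57BL/6 mice, 6 weeks old at that time, and tumors were taken on day 10: in Experiment A the mice carried WT cells on the left flank and KEAP1-KO cells on the right, and in Experiment B they carried KEAP1-KO cells on the left and DKO cells on the right. Genotype and flank therefore cannot be told apart within an experiment, WT and DKO tumors also differ in experiment, and each edited line stands on 1 clone. The tumor groups are written WT-A, KEAP1-KO-A, KEAP1-KO-B and DKO-B. Nothing in the labels says that the 4 libraries of a cell line came from separate cultures, so their p-values measure only the spread between these libraries.

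P450 enzymes are haem monooxygenases that take electrons from P450 reductase and oxidise drugs, fatty acids, sterols, retinoids and vitamin D. UGTs attach glucuronic acid, and SULTs attach sulfate, to hydroxyl and similar groups, so that the products can be exported. NRF2 is a transcription factor that KEAP1 holds low by marking it for degradation; once released, it drives genes of detoxification and redox balance, and UGTs are among the genes known to respond to it in liver. AHR, a receptor of planar aromatic compounds, drives Cyp1a1 and Cyp1b1 once bound.

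The Ugt1a locus on chromosome 1 makes several enzymes by splicing alternative first exons, which encode the part that binds the substrate, to 1 set of downstream exons, which encode the part that binds UDP-glucuronic acid. The 6 rows therefore share sequence, and this governs how their values can be read. The joins are printed from the GENCODE vM21 transcripts (build GRCm38, plus strand), with the last 30 bases of the own exon in lower case and the first 30 bases of exon 2, at chr1:88215044-88215073, in capitals.
Ugt1a7c: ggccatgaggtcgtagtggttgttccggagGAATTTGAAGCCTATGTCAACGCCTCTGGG
Ugt1a6b: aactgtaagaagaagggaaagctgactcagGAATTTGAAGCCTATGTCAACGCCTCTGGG
Ugt1a6a: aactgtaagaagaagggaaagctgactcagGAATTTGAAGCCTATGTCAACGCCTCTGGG
Ugt1a5: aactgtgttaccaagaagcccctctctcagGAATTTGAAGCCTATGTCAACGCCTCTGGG
Ugt1a2: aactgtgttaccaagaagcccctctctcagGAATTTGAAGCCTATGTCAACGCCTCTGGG
Ugt1a1: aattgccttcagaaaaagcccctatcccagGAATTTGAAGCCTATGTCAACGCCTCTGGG
The capitals are the same in all 6, and the lower-case ends are the same in Ugt1a6a and Ugt1a6b and in Ugt1a2 and Ugt1a5. The own exons end at chr1:88095274-88095303 (Ugt1a7c), chr1:88107770-88107799 (Ugt1a6b), chr1:88139302-88139331 (Ugt1a6a), chr1:88166874-88166903 (Ugt1a5), chr1:88201471-88201500 (Ugt1a2) and chr1:88212842-88212871 (Ugt1a1). Over the last 859 bases before exon 2, Ugt1a6a and Ugt1a6b were identical at 833 bases (97.0%).

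Between 57.2% and 70.6% of the bases of each Ugt1a row lie from exon 2 onwards. Counted as 31-base words, the share that vM21 gives to no other gene was 15.8% for Ugt1a6b, 31.1% for Ugt1a7c, 34.7% for Ugt1a5, 34.9% for Ugt1a2, 41.5% for Ugt1a1 and 59.6% for Ugt1a6a, whose transcript keeps the intron after exon 2. In Ugt1a6a, 2360 of 3342 bases lie from exon 2 onwards as 1 unspliced block. Its own words therefore include intron of the shared part and do not single out its first exons. The authors' quantifier divides shared reads among transcripts by estimation. The 6 rows are thus not 6 independent measurements, and their sum was analysed beside them. Ugt1a8, Ugt1a9 and Ugt1a10 share the most words with Ugt1a7c, and no row matched by name is theirs. The sum therefore covers 6 named rows and not the whole locus. Outside this locus the members share less: 40.3% of the words of Cyp4f16, 29.0% of Sult2a8 and 14.7% of Cyp4f13 occur in other genes, and at most 10.9% for any other P450 or UGT.

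**Figure D1:**
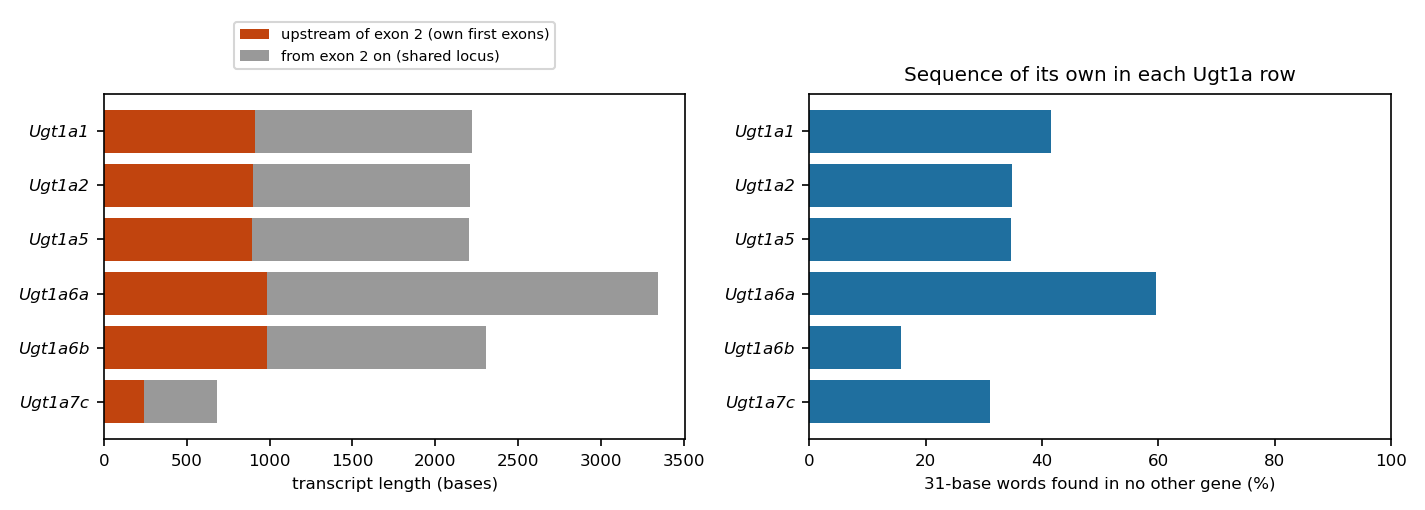
Length in bases of the longest annotated transcript of each Ugt1a row, divided at exon 2 (left), and percentage of its 31-base words found in no other gene of GENCODE vM21 (right). Ugt1a7c is the shortest row and Ugt1a6b has the smallest share of its own, 15.8%.

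Depth ran from 4222378 to 7524281 reads per library, counted back from the values, and 1 read equals 0.81 to 1.16 normalized counts. Keap1 and an NRF2 target followed the labels: on the log2 scale Keap1 fell by 1.43 from WT-A to KEAP1-KO-A tumors, and Nqo1, a standard NRF2 target, was 5.55 higher there and fell by 6.30 from KEAP1-KO-B to DKO-B tumors. Nfe2l2 is a transcript row whose level does not check the edit, and its adjusted p was 1 between DKO and KEAP1-KO tumors. The extraction label names liver; of 10 hepatocyte markers only Alb is in the table, at no more than 1.1 normalized counts in cells and 6.8 in tumors. The summed level of 5 leukocyte markers was at most 8.4 normalized counts in cells, 1735.9 to 2123.3 in WT tumors, 375.8 to 450.7 in KEAP1-KO-A, 619.9 to 817.1 in KEAP1-KO-B and 1161.4 to 1829.3 in DKO-B tumors. In these bulk samples fewer cells of a type and less RNA per cell cannot be told apart.

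KEAP1 loss and the NRF2 dependence of its effects were asked first. In tumors of Experiment A, 8 of 25 members tested passed limma's test (adjusted p under 0.05; background 13.1% of 34215 rows): the 6 Ugt1a rows and Cyp1a1 were higher after KEAP1 loss and Cyp4f18 was lower (backgrounds 5.61% higher and 7.49% lower). In Experiment B the same 8 rows passed in the opposite direction, 7 lower and 1 higher in DKO than in KEAP1-KO (background 8.86%, of which 4.64% lower and 4.22% higher). The other 5 members did not pass the filter within tumors. Cyp1a1 and Ugt1a1 are counted among the 8, although the KEAP1-KO tumors, where they are high, let them be tested. The median difference over the members tested was 0.42 in Experiment A, against -0.03 over all rows, and -0.14 in Experiment B, against 0.00. KEAP1-KO-A and KEAP1-KO-B tumors did not differ in any of 25 members by limma (background 0.164%, with 0.152% higher and 0.0117% lower in Experiment B); 3 members had an unadjusted p under 0.05, the lowest adjusted p was 0.444 (Cyp2s1), and the count was 0 under each of the alternatives run.

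Ugt1a7c, a glucuronosyltransferase of phenols, had the highest mean of the UGT rows (7.22 over 28 libraries, not corrected for length). Its values were 6.44, 6.50, 6.55 and 6.57 in WT tumors, 8.09, 8.09, 8.08 and 8.07 in KEAP1-KO-A, 7.94, 8.16, 7.98 and 7.76 in KEAP1-KO-B and 7.01, 7.20, 7.28 and 7.05 in DKO tumors. Nothing overlapped between genotypes: KEAP1-KO was highest, DKO next and WT lowest. The difference was 1.57 ± 0.09 (SE, n = 4 and 4) between KEAP1-KO and WT tumors (limma adjusted p = 1.5e-08). It fell by 0.82 ± 0.09 from KEAP1-KO to DKO tumors (limma adjusted p = 1.9e-05) and remained 0.62 ± 0.09 higher in DKO than in WT tumors (limma adjusted p = 0.00028).

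Ugt1a6a, the enzyme of small planar phenols, had the largest difference of the members in both tumor experiments, as a retained-intron row. It read 4.95, 4.59, 4.70 and 5.21 in WT tumors, 7.52, 7.97, 8.22 and 8.0 in KEAP1-KO-A, 7.68, 7.74, 7.75 and 7.69 in KEAP1-KO-B and 5.20, 5.40, 4.69 and 5.32 in DKO tumors. The WT and DKO tumors overlapped and the KEAP1-KO tumors stood clear of both. The difference was 3.06 ± 0.18 for KEAP1-KO against WT tumors (limma adjusted p = 1.7e-08), and levels fell by 2.56 ± 0.18 in DKO tumors (limma adjusted p = 1.7e-07). DKO and WT tumors differed by 0.29 ± 0.18 (limma adjusted p = 0.36).

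Ugt1a1, the enzyme that conjugates bilirubin, was close to the floor in WT tumors at 3.09, 2.97, 2 and 2.51, and read 5.31, 5.23, 5.79 and 5.58 in KEAP1-KO-A tumors. In Experiment B it read 4.58, 5.43, 4.88 and 5.59 in KEAP1-KO and 2.63, 3.35, 3.94 and 3.83 in DKO tumors. Neither pair of groups overlapped. No WT tumor reached the threshold of 3.17 for Ugt1a1, so it was tested through the edited tumors where it is high. The remaining 3 rows moved alike: Ugt1a2, Ugt1a5 and Ugt1a6b were higher by 2.18, 2.05 and 1.76 in KEAP1-KO-A tumors and fell by 1.70, 1.74 and 1.10 in DKO-B tumors. For Ugt1a6b in Experiment B the limma adjusted p of 0.023 became 0.0501 without KEAP1-KO tumor replicate 2, 0.0813 without replicate 3, 0.0521 without DKO tumor replicate 2 and 0.0577 without DKO tumor replicate 4. With the replicate number as a block this limma adjusted p was 0.0765.

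Summed, the 6 rows held 177, 160, 151.7 and 180.8 normalized counts in WT tumors, 694.7, 744.6, 884.9 and 774.8 in KEAP1-KO-A, 701.3, 738.2, 754.8 and 614.8 in KEAP1-KO-B and 254.2, 249.3, 250.9 and 245.6 in DKO tumors. The 3 genotypes did not overlap and DKO tumors lay between the other two. The sum was 2.18 ± 0.09 higher in KEAP1-KO than in WT tumors, fell by 1.47 ± 0.09 in DKO tumors and was 0.57 ± 0.09 higher in DKO than in WT tumors (limma adjusted p = 1.7e-10, 2.0e-08 and 0.00041). This sum was added after the values had been seen.

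Cultured cells gave the same test without host cells. Of 23 members tested, 9 were higher in KEAP1-KO than in WT cells and none was lower (background 15.5%, 8.13% higher and 7.33% lower): the 6 Ugt1a rows, Cyp1a1, Cyp26b1 and Cyp20a1. In DKO against KEAP1-KO cells 4 of 23 were lower and none was higher (background 8.83%, 4.85% lower and 3.98% higher): Cyp1a1, Ugt1a6a, Ugt1a7c and Cyp4v3. Ugt1a6a, Ugt1a7c and Cyp1a1 were the 3 members called in all 4 of these comparisons, but Cyp1a1 passed the filter within cells through the KEAP1-KO libraries alone, which fixed its 2 calls there.

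Ugt1a7c read 6.27, 6.19, 6.32 and 6.12 in WT cells, 7.50, 8.01, 7.87 and 7.72 in KEAP1-KO cells and 6.84, 6.73, 6.85 and 6.96 in DKO cells. The order WT, DKO, KEAP1-KO was free of overlap, as in the tumors. It was higher by 1.55 ± 0.11 in KEAP1-KO cells, fell by 0.93 ± 0.11 in DKO cells, and was 0.62 ± 0.11 higher in DKO than in WT cells (limma adjusted p = 7.5e-07, 0.0001 and 0.0014). Ugt1a6a read 4.86, 4.26, 4.49 and 4.25 in WT cells, 6.78, 6.86, 6.71 and 6.79 in KEAP1-KO cells, and 2, 2, 4.97 and 4.21 in DKO cells, where 2 of 4 libraries held no read of the row. Its difference between KEAP1-KO and WT cells of 2.32 ± 0.56 had a limma adjusted p of 0.013, which became 0.0998 with a pseudocount of 1, and it fell by 3.49 ± 0.56 in DKO cells (limma adjusted p = 0.0014).

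Ugt1a1, Ugt1a2, Ugt1a5 and Ugt1a6b were higher in KEAP1-KO than in WT cells by 2.09, 1.49, 1.93 and 1.76. Their differences from KEAP1-KO to DKO cells were -0.97, -0.81, -1.08 and -0.63, with limma adjusted p of 0.09, 0.21, 0.063 and 0.15. Ugt1a1 reached the threshold in no WT cell library, so it was tested through the edited lines where it is high. The sum over the 6 rows, 103.6 to 112.7 normalized counts in WT cells, 418 to 455.2 in KEAP1-KO cells and 163.2 to 190.7 in DKO cells, had no overlap between any 2 lines. It was 1.94 ± 0.07 higher in KEAP1-KO than in WT cells, fell by 1.26 ± 0.07 in DKO cells and was 0.68 ± 0.07 higher in DKO than in WT cells (limma adjusted p = 2.4e-09, 1.2e-07 and 2.2e-05).

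The effect of KEAP1 loss on the sum of the 6 rows was 0.24 ± 0.11 larger in tumors than in cells, and the difference did not pass limma's test (adjusted p = 0.26). That of NRF2 loss differed by -0.21 ± 0.11 (limma adjusted p = 0.42). No single Ugt1a row passed either test of the difference.

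**Figure D2:**
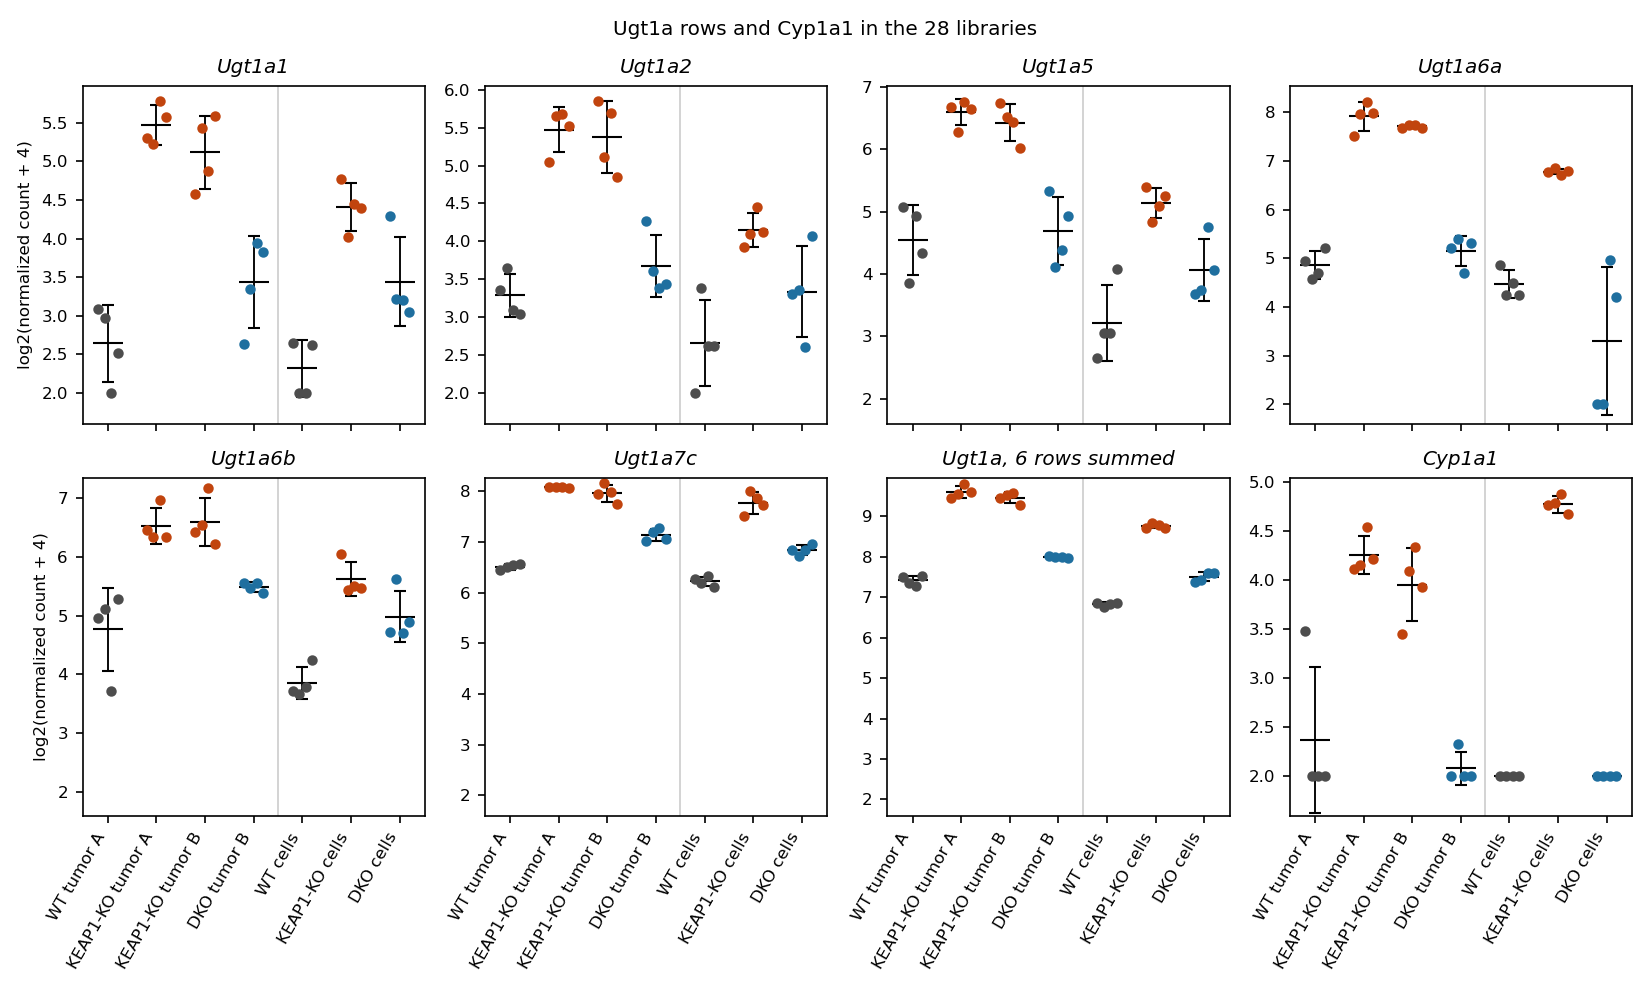
Values of the 6 Ugt1a rows, their sum and Cyp1a1 as log2(normalized count + 4) in the 28 libraries; points are libraries, bars the mean and SD of 4, A and B the experiments. In each panel the mean of KEAP1-KO is above that of WT within Experiment A and within cells, and the mean of DKO is below that of KEAP1-KO within Experiment B and within cells; DKO cells lie 1.12 and 1.13 above WT cells for Ugt1a1 and Ugt1a6b, and 2 DKO cell libraries are at 2 for Ugt1a6a.

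Cyp1a1, the P450 that oxidises polycyclic aromatic hydrocarbons and the best known AHR target, followed the same genotypes from almost no signal. It held no read in the 4 WT cell and the 4 DKO cell libraries, and read 4.77, 4.79, 4.88 and 4.67 in KEAP1-KO cells, which is 23.4 ± 1.63 normalized counts (SD, n = 4). Against a floor of 3 reads per library this is at least 7.14-fold higher than in WT and at least 7.95-fold higher than in DKO cells. The log2 differences of 2.78 and -2.78 (limma adjusted p = 5.8e-07 and 8.3e-07) depend on the pseudocount.

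In tumors Cyp1a1 read 3.48, 2, 2 and 2 in WT, 4.12, 4.16, 4.54 and 4.22 in KEAP1-KO-A, 3.46, 4.09, 4.34 and 3.94 in KEAP1-KO-B and 2, 2.33, 2 and 2 in DKO. Reads were thus found in 1 of 4 WT tumors and 1 of 4 DKO tumors, and in all 8 KEAP1-KO tumors. The difference was 1.89 ± 0.32 in Experiment A and levels fell by 1.87 ± 0.32 in Experiment B (limma adjusted p = 0.00072 and 0.0012). Within tumors the row passed the filter through the 8 KEAP1-KO tumors and 1 WT tumor, so the genotype where it is high decided that it was tested. Ahr itself held almost no read in cells (mean 2.16 in WT, 2.15 in KEAP1-KO and 2 in DKO) and fell by 1.65 ± 0.20 from WT-A to KEAP1-KO-A tumors (limma adjusted p = 2.7e-05), and DKO-B differed from KEAP1-KO-B by 0.47 ± 0.20 (adjusted p = 0.175). Ahr was 4.43 higher in WT tumors than in WT cells, and the leukocyte markers given above, lower in KEAP1-KO-A than in WT-A tumors, moved with it; their part in the result was not tested. Cyp1b1, the other classical AHR target, did not pass any of the 13 comparisons.

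Promoters were inspected because the 7 rows moved together. RefSeq promoters (GRCm38.p6, 300 bases around the start) were found for 23 of 30 members and for 6 of these 7. Motifs were searched on both strands: TGACNNNGC, the core of the element that NRF2 binds, which 12.4% of 32851 promoters hold, and GCGTG, the core of the element that AHR binds, which 32.4% hold. The first was found in 2 of the 23 promoters (Cyp2j6 and Cyp4f18) and in none of the 6, and the second in 8 of 23 and in 2 of the 6 (Cyp1a1 and Ugt1a5). The 250 bases before both starts are shown, on the plus strand at chr9:57697363-57697612 and chr1:88165762-88166011, with GCGTG in capitals.
Cyp1a1: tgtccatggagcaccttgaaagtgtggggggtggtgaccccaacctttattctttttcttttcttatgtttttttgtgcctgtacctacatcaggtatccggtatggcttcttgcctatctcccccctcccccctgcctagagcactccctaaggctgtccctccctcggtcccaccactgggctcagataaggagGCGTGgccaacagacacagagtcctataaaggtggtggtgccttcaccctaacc
Ugt1a5: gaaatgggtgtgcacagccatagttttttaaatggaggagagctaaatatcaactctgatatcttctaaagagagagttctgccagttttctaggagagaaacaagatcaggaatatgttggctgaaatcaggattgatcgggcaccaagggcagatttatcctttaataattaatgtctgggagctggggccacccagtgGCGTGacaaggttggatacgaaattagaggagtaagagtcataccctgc
The match begins 54 bases before the start in Cyp1a1 and 49 bases before it in Ugt1a5. A match is a description of the letters, and windows without one say nothing of more distant sites.

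DKO and WT were then compared directly. In cells, 7 of 23 members differed (background 17.7%, 8.46% higher and 9.2% lower): Cyp26b1, Ugt1a1, Ugt1a6b and Ugt1a7c were higher and Cyp24a1, Cyp2s1 and Cyp4v3 were lower in DKO than in WT. Of the lower rows, Cyp24a1 and Cyp2s1 were tested only through the WT cells, where they are high, and 1 KEAP1-KO library. Ugt1a1 (1.12 ± 0.32) had a limma adjusted p of 0.028, which became 0.0719 without WT replicate 2, 0.0724 without WT replicate 3 and 0.0663 without DKO replicate 1. It was at most 2.65 in WT cells, under the threshold, so it was tested through the edited lines where it is high. In tumors, 3 of 25 differed (background 10.6%, 4.57% higher and 5.99% lower): Ugt1a7c and Cyp46a1 were higher and Cyp4v3 was lower in DKO than in WT. Ugt1a7c (0.62 in both) and Cyp4v3 are the members that differed in both settings.

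Cyp26b1, the hydroxylase that clears retinoic acid, had the highest mean of the P450 rows (7.99 over 28 libraries, not corrected for length). It read 5.90, 5.69, 5.72 and 6.16 in WT cells, 7.10, 7.22, 7.29 and 7.41 in KEAP1-KO cells and 7.20, 7.01, 7.46 and 7.60 in DKO cells. Both edited lines lay above WT without overlap and overlapped each other. The difference from WT was 1.39 ± 0.14 in KEAP1-KO and 1.45 ± 0.14 in DKO cells (limma adjusted p = 2.4e-05 and 1.5e-05), and DKO differed from KEAP1-KO cells by 0.06 ± 0.14 (adjusted p = 0.87).

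In tumors Cyp26b1 read 8.70, 8.53, 8.73 and 9.22 in WT, 8.66, 9.0, 8.81 and 8.77 in KEAP1-KO-A, 8.86, 9.09, 9.09 and 9.44 in KEAP1-KO-B and 8.75, 8.75, 8.57 and 8.91 in DKO. The 4 groups overlapped. KEAP1-KO and WT tumors differed by 0.02 ± 0.14 (limma adjusted p = 0.97), and the effect of KEAP1 loss was 1.37 ± 0.21 smaller in tumors than in cells (limma adjusted p = 7.1e-05). Summed fibroblast markers, also moving with the tumors, were 371.7 to 720.9 normalized counts over all cell libraries and 2026.3 to 15117.4 over all tumors, with 5 of 8 markers above the threshold in every library of each cell line; their part in the result was not tested.

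Cyp26c1, the related retinoic acid hydroxylase, lay near the floor: 3.36, 3.42, 2.94 and 3.18 in WT tumors and 2 to 2.65 in the 8 KEAP1-KO tumors. The DKO tumors, at 2.68 to 2.87, lay between them. It did not pass the filter within tumors or within cells, and over all libraries it passed through 3 WT tumors and 1 KEAP1-KO cell library. In the fit of all 28 libraries, 3 of 30 members had a KEAP1 effect that differed between tumors and cells (background 5.38%, 3.88% lower), all lower in tumors: Cyp26b1, Cyp4f18 and Cyp26c1. For Cyp26c1 (-1.35 ± 0.32) the libraries that let it pass the filter belong to the groups that set the sign, so its value is a description and 2 of the 3 calls remain.

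Cyp4f18, a hydroxylase known to act on leukotriene B4 in mouse neutrophils, was the member lowered in KEAP1-KO tumors. It read 6.12, 5.22, 5.05 and 5.28 in WT tumors, 3.56, 2.37, 2.31 and 3.78 in KEAP1-KO-A, 2.32, 4.01, 2.33 and 2.36 in KEAP1-KO-B and 4.50, 4.79, 4.86 and 5.01 in DKO tumors. WT and DKO tumors stood above the KEAP1-KO tumors without overlap. It fell by 2.41 ± 0.42 in KEAP1-KO-A tumors (limma adjusted p = 0.00085) and was 2.04 ± 0.42 higher in DKO than in KEAP1-KO-B tumors (limma adjusted p = 0.0049).

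Cells held almost none of it: no read in 4 of 4 WT libraries, 2, 2.52, 2.56 and 3.23 in KEAP1-KO and 2.32, 2, 2 and 2.28 in DKO cells. WT tumors, at 40.7 ± 16.7 normalized counts (SD, n = 4), were at least 12.4-fold above the floor of 3 reads per library in WT cells. The KEAP1 effect was 2.99 ± 0.51 lower, and the NRF2 effect 2.46 ± 0.51 higher, in tumors than in cells (limma adjusted p = 0.00034 and 0.0043); the second was the 1 of 30 members called (background 3.67%, 2.12% higher). The leukocyte markers given above, of which all 5 passed the threshold in every tumor and none in all 4 libraries of any cell line, were ordered over the tumor groups like Cyp4f18 apart from the 2 KEAP1-KO groups; their part in the result was not tested.

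Cyp4v3, a fatty acid hydroxylase whose human counterpart is mutated in a crystalline retinal dystrophy, differed between genotypes by less than 1 on the log2 scale. It read 6.57, 6.31, 6.57 and 6.45 in WT cells, 6.53, 6.47, 6.35 and 6.32 in KEAP1-KO cells and 5.92, 5.79, 6.11 and 5.92 in DKO cells. Only the DKO cells stood apart. They were lower by 0.54 ± 0.10 than WT (limma adjusted p = 0.0026) and levels fell by 0.48 ± 0.10 from KEAP1-KO to DKO (limma adjusted p = 0.010).

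In tumors Cyp4v3 read 7.89, 7.78, 7.92 and 7.77 in WT, 7.67, 7.52, 7.38 and 7.46 in KEAP1-KO-A, 7.82, 7.40, 7.76 and 7.95 in KEAP1-KO-B and 7.27, 7.53, 7.32 and 7.47 in DKO. Both the DKO tumors and the KEAP1-KO-A tumors lay below WT tumors without overlap, and DKO-B overlapped KEAP1-KO-B. KEAP1-KO-A differed from WT-A by -0.34 ± 0.11 and DKO-B from KEAP1-KO-B by -0.34 ± 0.11, and neither passed (limma adjusted p = 0.059 and 0.076). The difference of DKO from WT tumors was -0.44 ± 0.11 (limma adjusted p = 0.016); the adjusted p was 0.051 without WT replicate 3 and 0.0541 without DKO replicate 1.

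Cyp2s1, Cyp24a1, Cyp46a1 and Cyp20a1 were each called in 1 comparison of genotypes. Cyp2s1, an extrahepatic P450, read 3.83, 3.99, 3.89 and 3.38 in WT cells, 3.11, 3.34, 3.12 and 3.08 in KEAP1-KO cells and 2.79, 2.61, 2.61 and 2 in DKO cells, with no overlap between the 3 lines. It fell by 1.27 ± 0.24 from WT to DKO (limma adjusted p = 0.0026), having passed the filter within cells through the 4 WT libraries and 1 KEAP1-KO library; both single steps, -0.61 and -0.66, had adjusted p of 0.12 and 0.13. Cyp24a1, which inactivates the vitamin D hormone, was 3.24 to 3.53 in WT and 2.28 to 2.84 in DKO cells (-0.92 ± 0.24, limma adjusted p = 0.019; 0.0532 without WT replicate 2 and 0.0525 without DKO replicate 4), and it passed the filter within cells through the 4 WT libraries and 1 KEAP1-KO library. Cyp46a1, a cholesterol hydroxylase best known from brain, was 3.23 to 3.95 in WT tumors and 4.43 to 4.94 in DKO tumors, as a row of a decay-targeted transcript.

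The Cyp46a1 difference of 0.99 ± 0.27 had a limma adjusted p of 0.029, and one of 0.0896 and 0.0547 without WT replicates 1 and 4, and of 0.0772 and 0.0725 without DKO replicates 3 and 4. Cyp20a1, a P450 of unsettled function measured through a retained intron, read 3.10, 2, 2 and 3.23 in WT cells and 3.39, 5.44, 4.74 and 4.99 in KEAP1-KO cells. Its call (2.06 ± 0.63, limma adjusted p = 0.046) was lost in 12 of 18 alternatives, among them the omission of any 1 WT replicate (adjusted p 0.0583, 0.112, 0.112 and 0.0529 for replicates 1 to 4) or of KEAP1-KO replicate 2, 3 or 4 (0.124, 0.096 and 0.108).

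**Figure D3:**
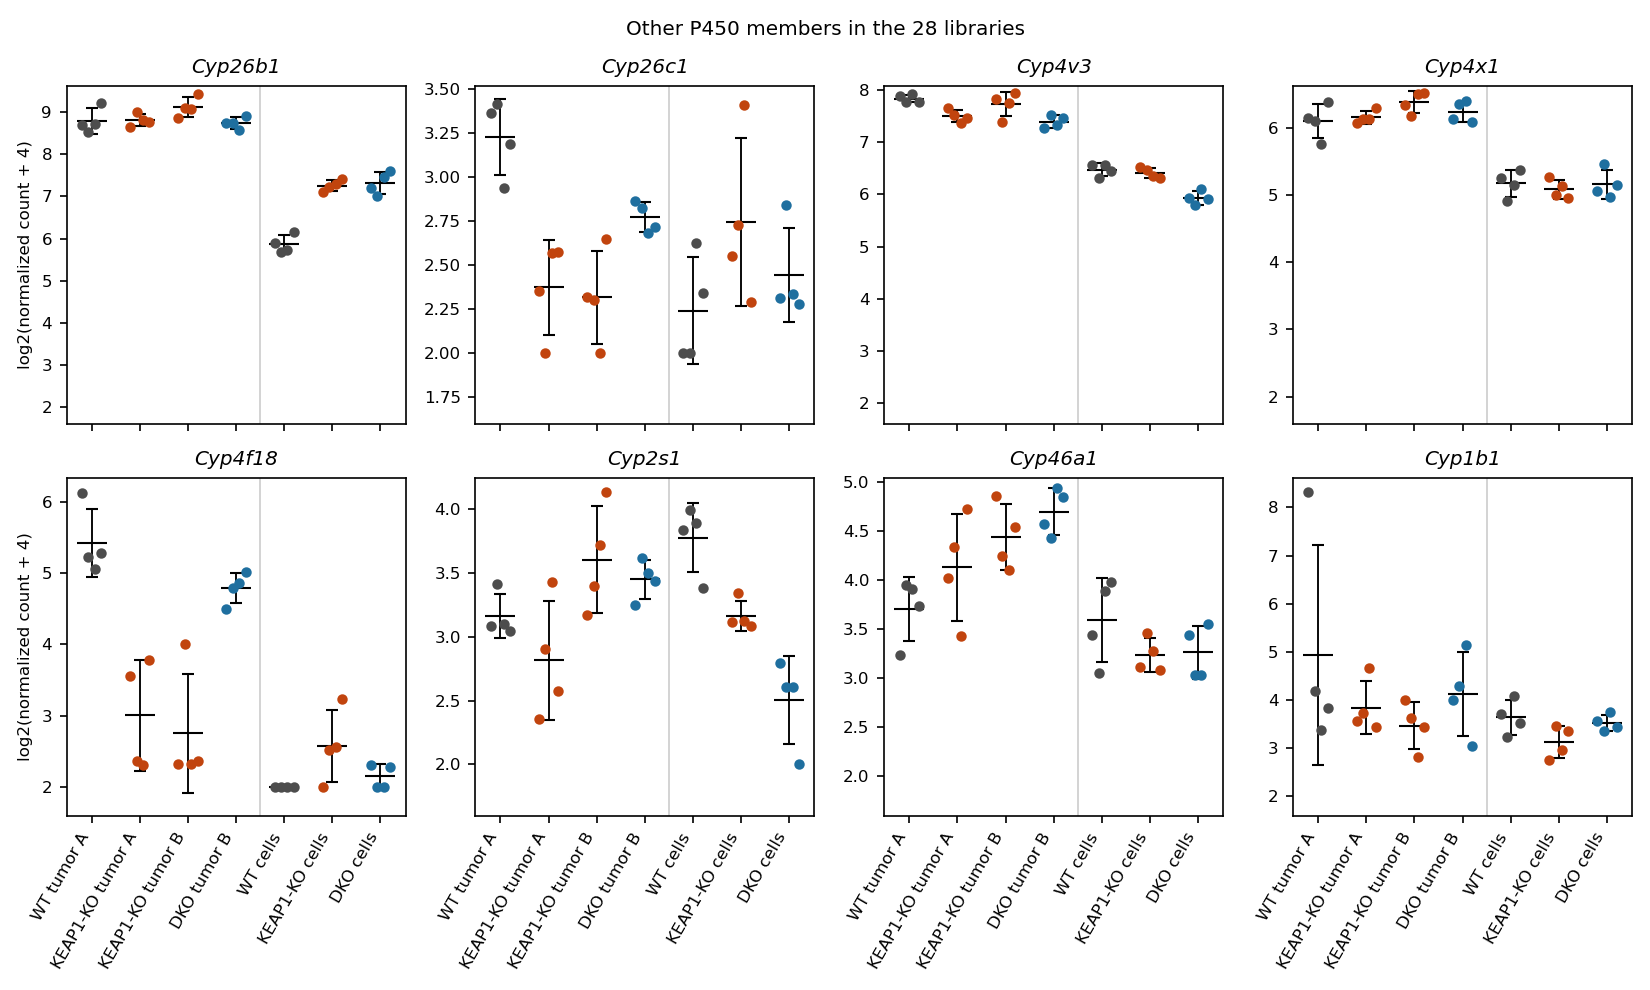
Values of 8 P450 rows as log2(normalized count + 4) in the 28 libraries; points are libraries, bars the mean and SD of 4, A and B the experiments. Cyp26b1 separates WT from edited cells but not the tumors, Cyp4f18 is near 2 in cells, and 1 WT tumor stands at 8.33 for Cyp1b1.

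Tumors were compared with the cells they came from in the fit of all 28 libraries. Of 30 members, 12 differed in WT, 9 higher and 3 lower (background 38.8%, 24.7% higher and 14.1% lower), and 12 in KEAP1-KO-A, 11 higher and 1 lower (background 39.6%, 23.9% higher and 15.8% lower). In KEAP1-KO-B 10 differed, 8 higher and 2 lower (background 38.8%, 23.9% higher and 14.9% lower), and in DKO-B 13 differed, 12 higher and 1 lower (background 43.5%, 27.6% higher and 15.9% lower). Scaling matters here: with libraries centred on their median, the log2 differences dropped by 0.39 (WT), 0.23 and 0.27 (KEAP1-KO of Experiments A and B) and 0.36 (DKO). Cyp26b1, Cyp4v3 and Cyp4x1 were higher in tumors in all 4 comparisons. Cyp26b1 was higher by 2.93, 1.56, 1.87 and 1.43 in the order above, and by 2.53, 1.32, 1.59 and 1.06 after centring.

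Cyp4v3 was higher in tumors by 1.36, 1.09, 1.32 and 1.46, with SE of 0.10 (0.97, 0.85, 1.04 and 1.10 after centring). Cyp4x1, a further member of the Cyp4 family, read 4.90 to 5.46 over the 12 cell libraries and 5.76 to 6.51 over the 16 tumors, with no overlap. It was higher by 0.92, 1.07, 1.29 and 1.08, with SE of 0.14 (0.53, 0.83, 1.02 and 0.71 after centring), and no comparison of genotypes called it. All 12 of these differences remained called after centring. Markers of leukocytes, macrophages, fibroblasts and endothelium were higher in tumors than in cells, and their part in these differences was not tested.

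Cyp46a1 was higher in KEAP1-KO and DKO tumors than in their cells (0.90, 1.20 and 1.43, SE 0.26) and differed by 0.11 in WT. Cyp24a1 was lower in WT tumors than in WT cells by 1.15 ± 0.21 (limma adjusted p = 5.8e-05), but it passed the filter through the 4 WT cell libraries and 1 KEAP1-KO cell library, so the group where it is high decided that it was tested. Ugt1a5 and Ugt1a6b were higher in WT and in both KEAP1-KO groups of tumors (Ugt1a5 by 1.34, 1.45 and 1.29; Ugt1a6b by 0.91, 0.90 and 0.97, of which the first and second lost their call after centring). Ugt1a7c was higher by 0.29 in WT and in DKO tumors, and these differences turned to -0.10 and -0.07 after centring.

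Several tumor-minus-cell calls rested on low counts and on single libraries. Cyp2j6, Sult2a8 and Ugt3a1, like Cyp2d22, reached the threshold in tumors and in no cell library, so that they were tested only through the groups where they are high. Cyp4f18 reached it in tumors and, among cells, only in a KEAP1-KO library (3.23), so tumors where it is high let it be tested. In WT, the call of Cyp2s1 (-0.61) was lost without WT cell replicate 1, 2 or 3 or WT-A tumor replicate 1, 3 or 4 (limma adjusted p 0.0813 to 0.108) and with a pseudocount of 1 (0.108). That of Sult2a8 (0.76) was lost without WT cell replicate 1, 2 or 3 or tumor replicate 2, 3 or 4 (limma adjusted p 0.0517 to 0.19), and after median centring or quantile normalization the difference was 0.36 and 0.40 (0.393 and 0.363). Cyp4f16 (-2.28 ± 0.74) had an adjusted p of 0.056 without WT-A tumor replicate 4, and Ugt1a7c 0.0574 without WT cell replicate 4. Cyp26c1 was 0.98 ± 0.23 higher in WT tumors, but it passed the filter with 4 libraries, 3 of them WT tumors, so the group where it is high decided that it was tested.

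In KEAP1-KO, Cyp24a1 was lower in tumors of both experiments (-0.55 in each), and both calls were lost without cell replicate 1, 3 or 4, the first also without KEAP1-KO-A tumor replicate 1 and the second without KEAP1-KO-B tumor replicate 2, 3 or 4 (limma adjusted p 0.0789 to 0.153); a pseudocount of 1 ended both (0.0633 and 0.0795). Ugt1a6a (1.14 in KEAP1-KO-A) lost its call without cell replicate 1, 3 or 4 or tumor replicate 2, 3 or 4 (0.0514 to 0.0729), after centring (0.0858) and with a pseudocount of 1 (0.179). In the same comparison Ugt1a7c (0.31) was 0.07 after centring (limma adjusted p = 0.614) and lost its call without cell replicate 1 (0.0702). Ugt3a1 (0.83), which transfers N-acetylglucosamine, was 0.60 after centring (0.0859) and 0.62 after quantile normalization (0.0542), and lost its call without tumor replicate 3 (0.0616). Cyp1a1 was lower in KEAP1-KO-B tumors than in KEAP1-KO cells (-0.82 ± 0.25), and this was lost without tumor replicate 1 (limma adjusted p = 0.0533) and with a pseudocount of 1 (0.116).

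Cyp2d22 had no read in any of the 12 cell libraries and reached the threshold in 4 libraries, all tumors, so that it was tested only through the groups where it is high. It was higher in KEAP1-KO-B (0.88) and DKO-B tumors (0.80), and the calls were lost without any 1 cell replicate of the line, without KEAP1-KO-B tumor replicate 2 or 4, and without DKO-B tumor replicate 1 or 3 (limma adjusted p 0.0587 to 0.13). After centring the differences were 0.61 and 0.44 (0.163 and 0.315). In DKO the other rows called were Cyp4f18 (2.64 ± 0.36), Cyp2j6, an arachidonic acid epoxygenase (1.02), Cyp2s1 (0.95), Cyp4f13 (1.06), Ugt3a1 (1.04), Ugt1a6a (1.86) and the pseudogene Cyp2c52-ps (-0.82). Cyp4f18 kept its call under each alternative in which it was tested, but it reached the threshold in tumors and in no DKO cell library. Centring left Cyp2j6, Cyp2s1 and Cyp4f13 with limma adjusted p of 0.0537, 0.0558 and 0.105, and quantile normalization ended these 3 calls (0.0659 to 0.0826) and that of Ugt3a1 (0.0541). Ugt1a7c in DKO was lost without cell replicate 2 (0.0514) or tumor replicate 3 (0.0578). Ugt1a1 (1.07 in KEAP1-KO-A) and Ugt1a2 (1.32 and 1.23 in KEAP1-KO-A and KEAP1-KO-B) were higher in tumors. The call of Ugt1a1 was lost with a pseudocount of 1 (0.0782) and after quantile normalization (0.0541); those of Ugt1a2 were kept under each alternative in which it was tested.

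**Figure D4:**
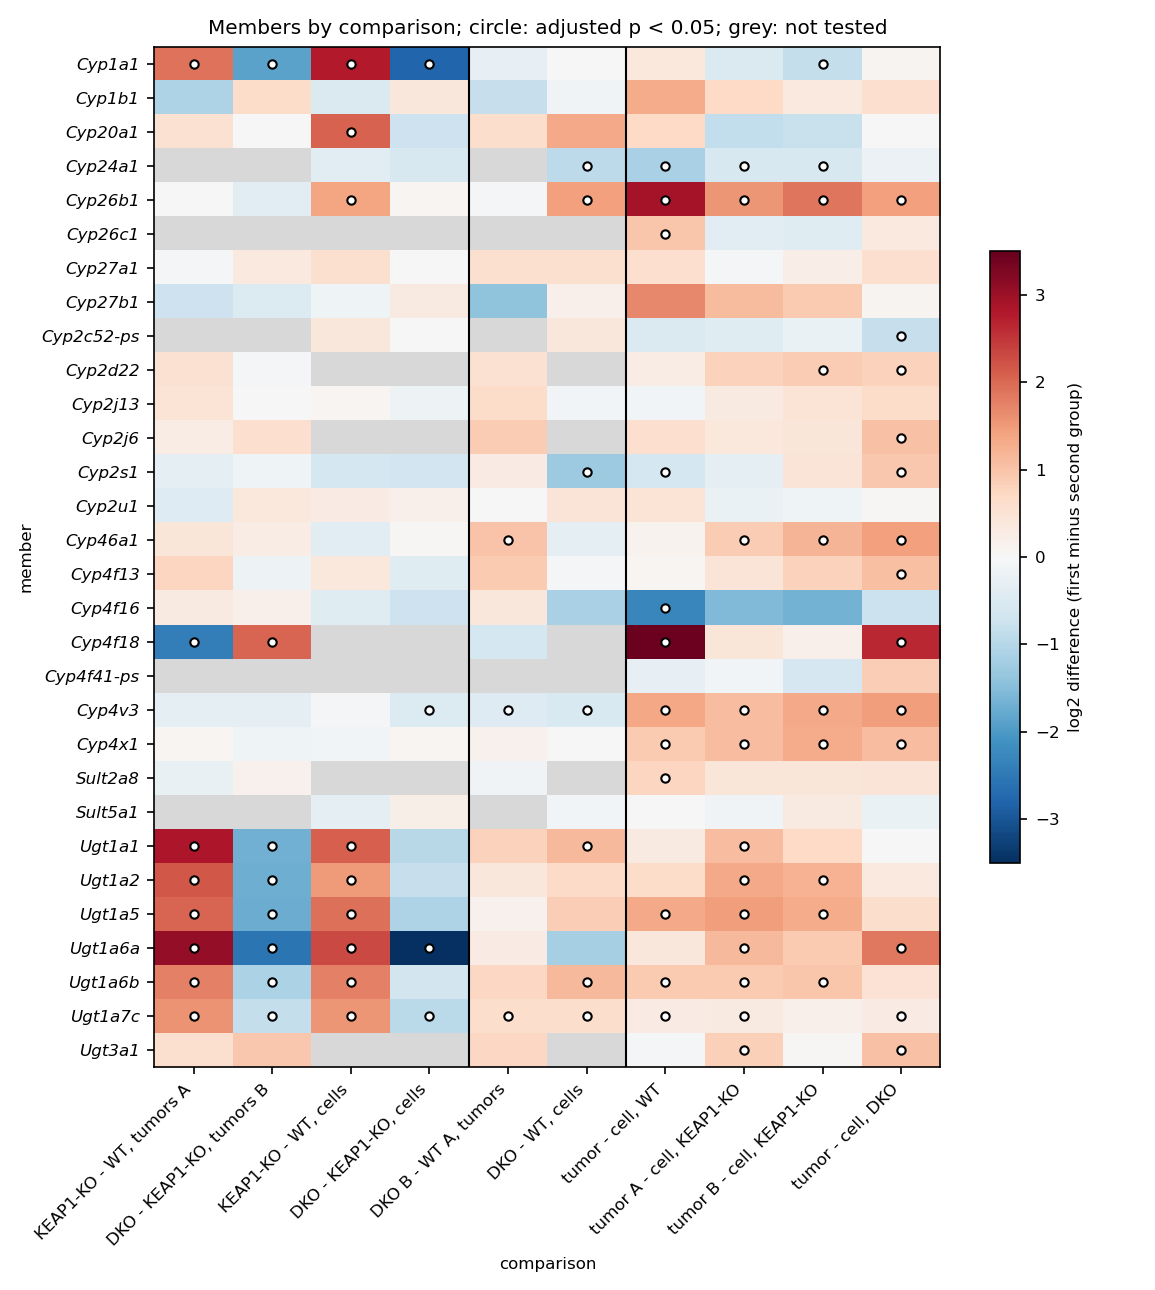
Log2 differences of the 30 members in 10 comparisons; colour gives the difference, a circle marks an adjusted p under 0.05 and grey a row that did not pass the filter. The Ugt1a block and Cyp1a1 are red for KEAP1-KO against WT and blue for DKO against KEAP1-KO, in tumors and in cells.

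Neither sulfotransferase was called between genotypes. Sult2a8, a bile acid sulfotransferase and the SULT row with the higher mean (3.01), ranged from 2 to 3.05 in WT cells and from 2.92 to 3.95 in WT tumors, with means of 2.42 and 6.84 normalized counts. Sult5a1 was called in none of the 13 comparisons, and at this depth such rows cannot show small differences. In all, 14 of 30 members were called in at least 1 of the 7 comparisons of genotypes or experiments (background 29.6% of 37246 rows, and the 6 Ugt1a rows among the 14 share reads), and 23 of 30 in at least 1 of the 13 (background 64.1%). Called in none of the 13 were Cyp1b1, Cyp27a1, Cyp27b1, Cyp2j13, Cyp2u1, Cyp4f41-ps and Sult5a1. Of these, Cyp27a1 makes bile acid precursors and Cyp27b1 activates vitamin D, and their rows are a retained intron and a decay-targeted transcript. Over the 28 libraries these 7 rows had medians between 2 (Cyp4f41-ps) and 3.96 (Cyp2u1).

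Partners of the 3 families were read from lists of genes. Shares of all rows called are those given above for each comparison. Among 9 electron partners of P450 tested in tumors, Por (the P450 reductase), Cyb5a (cytochrome b5) and Pgrmc1 were higher in KEAP1-KO-A than in WT-A tumors by 0.68, 1.21 and 0.53 (3 of 9, against 5.61% of all rows), and the same 3 genes fell by 0.40, 1.29 and 0.33 from KEAP1-KO-B to DKO-B tumors (against 4.64% of all rows); the other 6 did not pass in either. The list's median was 0.12 in Experiment A, against -0.03 over all rows, and -0.10 in Experiment B, against 0.00. In cells 4 of 10 were higher after KEAP1 loss (Por 0.58, Cyb5a 1.24, Cyb5r4 0.31, Pgrmc1 0.56) and 1 was lower (Cyb5r3, -0.16), against 8.13% of all rows higher and 7.33% lower. From KEAP1-KO to DKO cells Por, Cyb5a, Cyb5r3 and Cyb5r4 fell by 0.67, 1.77, 0.26 and 0.35 and Cyb5r1 was higher by 1.29 (4 and 1 of 10, against 4.85% of all rows lower and 3.98% higher). Between tumors and cells, 7 of 10 partners were lower in tumors in each of the 4 comparisons, with list medians of -0.89, -0.86, -0.96 and -0.74 against 0.20, 0.16, 0.17 and 0.23 over all rows. Cyb5a, Cyb5r1, Cyb5r3, Cyb5r4, Fdx1 and Pgrmc1 were lower in all 4, and Por was higher in all 4 (0.20 to 0.47), by less than the centring shift given above in WT and KEAP1-KO-B, so that its direction there depends on the scaling. Cyb5a is a retained-intron row, Cyb5r1 a row of a decay-targeted transcript and Cyb5r4 a row of a processed transcript.

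Genes that supply UDP-glucuronic acid or cleave glucuronides were not called by limma in tumors, 0 of 7 in both experiments, with 2 and 0 at an unadjusted p under 0.05. In KEAP1-KO cells Ugdh, the enzyme that makes UDP-glucuronic acid, read through a retained intron, differed from WT by -0.44 and Ugp2 by 0.50, and both passed. Between tumors and cells, Ugdh was higher in tumors in all 4 comparisons (1.43 to 1.83) and Uxs1, which converts UDP-glucuronic acid to UDP-xylose, was lower in all 4 (-0.71 to -0.47). The Uxs1 row is a decay-targeted transcript. Ugp2 was lower in KEAP1-KO-A and KEAP1-KO-B (-0.39 and -0.43) and Slc35d1 in KEAP1-KO-B and DKO-B (-1.60 and -1.69). Of 6 genes of sulfate activation and handling tested, Bpnt2 was higher by 0.30 in KEAP1-KO-A tumors, Bpnt1 fell by 0.41 in DKO-B tumors and Papss1, read through a decay-targeted transcript, fell by 1.59 in KEAP1-KO cells. Papss2, which makes the sulfate donor, was higher in tumors than in cells in all 4 comparisons (1.31 to 2.18), Bpnt1 was lower in all 4 (-1.20 to -0.80) and Bpnt2 was lower in WT, KEAP1-KO-B and DKO (-0.33, -0.17 and -0.28). The host cell markers given above were also higher in tumors, and their part in the tumor-minus-cell differences of the list genes was not tested.

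Among 12 receptors and partners tested in tumors, Rxra was higher (1.5) and Ahr and Rara were lower (-1.65 and -0.24) in KEAP1-KO-A than in WT-A, and Rara was higher by 0.36 in DKO-B than in KEAP1-KO-B. In cells Rara was higher by 0.43 and Ahrr, the AHR repressor, fell by 1.27 after KEAP1 loss. Of 9 other enzymes of the same chemistry tested in tumors, 3 were higher in KEAP1-KO-A (Mgst1, Aox1 and Nnmt), with a list median of 0.02 against -0.03 over all rows. Mgst1, a microsomal glutathione transferase, was 2.24 higher in KEAP1-KO-A tumors and 4.50 higher in KEAP1-KO cells, and fell by 2.39 and 4.57 in DKO-B tumors and DKO cells. Aox1, aldehyde oxidase, a retained-intron row, was 2.25 and 1.39 higher and fell by 1.81 and 2.42 in the same comparisons. Nnmt, nicotinamide N-methyltransferase, also a retained-intron row, was 1.43 higher in KEAP1-KO-A tumors and 1.85 higher in KEAP1-KO cells, and 1.87 and 2.17 higher in DKO than in WT tumors and cells.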

How the data were processed

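RNA of 16 tumor and 12 cell samples was sequenced by the authors after ribosomal RNA removal, with directional libraries, and quantified with Salmon on GENCODE mouse transcripts, followed by iDEP. The paper's methods give a Salmon version and name version 35 of these transcripts, while the labels' processing notes give no Salmon version. As deposited, the unit is log2 of a normalized count plus 4, as read from the table itself: each library's minimum is 2, and 100% of low values are whole reads within 0.1. The design allowed for TPM, which the methods name; the values are not TPM, so limma 3.58.1 (R 4.3.3, lmFit and eBayes with trend) was run on the log2 values. Rows needed 5 normalized counts in 4 libraries of the fit (tumors, cells, or all 28), with Benjamini-Hochberg adjustment over all rows tested. Named are members called between genotypes, the highest mean per family, members higher or lower in tumors of every genotype, rows next to the threshold, Keap1, Nfe2l2, Nqo1 and called list genes, of which some are not reported here. Alternatives were a pseudocount of 1, other filters, quantile normalization, median centring, no trend, a replicate block, the omission of each library and the Ugt1a rows summed. Members and lists were chosen with earlier results of these data known. Coordinates are GRCm38 (GENCODE vM21), and may not be the authors' build. The limma script was tested on simulated data first. Same-numbered samples correlated by at most 0.033 and were not treated as pairs. Tumors of both flanks grew in the same mice, but the labels do not link libraries by mouse. The main limma p-values therefore do not use that pairing.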

Additional observations from a re-analysis of the deposited data

Results flagged for a closer look

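Among 202 groups of 4 libraries tested, 22 had a library far from the other 3 (Dixon's test; chance flags about 5% of groups), and most of these values lie within a few reads of the floor of 2. In Cyp1b1, WT tumor replicate 1 stood at 8.33, with the other WT tumors at 3.38 to 4.19. Cyp1a1 read 3.48 in WT tumor replicate 1 and 2.33 in DKO tumor replicate 2, where the other libraries held no read. Cyp4f18 read 4.01 in KEAP1-KO tumor replicate 2 of Experiment B, the others 2.32 to 2.36.

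In WT tumors, Cyp2d22 replicate 4 (3.04), Cyp2s1 replicate 2 (3.42), Cyp4f13 replicate 2 (2) and Cyp4f16 replicate 4 (2) stood apart. In KEAP1-KO tumors, Cyp20a1 (2.81) and Cyp24a1 (2.81) did so in replicate 1 of Experiment B and Cyp24a1 (2) in replicate 1 of Experiment A. In DKO tumors, replicate 4 stood apart for Cyp2j6 (3.32) and Sult5a1 (2).

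In KEAP1-KO cells the separate values were Cyp24a1 (2.52), Cyp27b1 (4.02) and Cyp2s1 (3.34), all in replicate 2, and Ugt1a6b (6.05) in replicate 1. In DKO cells they were Cyp24a1 (2.84, replicate 3), Cyp26c1 (2.84, replicate 2), Cyp2u1 (4.97, replicate 1), Ugt1a1 (4.30, replicate 1) and Ugt3a1 (2.51, replicate 4).

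The effect of KEAP1 loss differed between tumors of Experiment A and cells by limma's interaction test for Cyp26b1 (-1.37), Cyp26c1 (-1.35) and Cyp4f18 (-2.99), where Cyp26c1 passed the filter only through WT tumors and 1 KEAP1-KO cell library, the groups whose high values set its sign, and the effect of NRF2 loss differed between tumors of Experiment B and cells for Cyp4f18 (2.46).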

How the results depend on the processing

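Of 90 calls of a member in a comparison, recomputed under 1529 alternative values in all, 1418 values were still called in the same direction, 109 were not called and 2 reversed: with median centring Ugt1a7c was -0.104 for WT tumors minus cells and -0.0707 for DKO tumors minus cells (adjusted p = 0.463 and 0.621). Requiring a mean of 25 normalized counts left 5 members called in each tumor experiment, 4 in KEAP1-KO against WT cells, 4 in DKO against WT cells, 6, 7, 5 and 5 in the tumor-minus-cell comparisons (WT, KEAP1-KO of A, of B, DKO), and 1 and 0 for the KEAP1 and NRF2 effects in tumors against cells; low rows, Cyp4f18 among them, are then not tested by limma. With the Ugt1a rows summed into 1 row (added after seeing the data), 3, 3 and 4 members were called for Experiment A, Experiment B and KEAP1-KO against WT cells, and 7 for KEAP1-KO tumors of A minus cells. Asking for a log2 difference of at least 1 left 0 between DKO and WT tumors by limma (0 also at an unadjusted p under 0.05), 2 between DKO and KEAP1-KO cells, 4 between DKO and WT cells, and 6, 7 and 6 in WT and both KEAP1-KO tumor-minus-cell comparisons. Quantile normalization gave 8 for DKO tumors minus cells; the cause was not tested.

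Leaving out 1 library at a time gave 8 to 9 members in Experiment A, 7 to 9 in Experiment B, 0 to 0 between KEAP1-KO tumors, 2 to 4 between DKO and WT tumors, 7 to 8, 3 to 5 and 5 to 9 in the 3 cell comparisons, 9 to 12, 10 to 13, 8 to 10 and 12 to 14 for tumors minus cells, 2 to 3 for the KEAP1 and 1 to 1 for the NRF2 effect in tumors against cells. With the replicate number as a block, 8, 7, 9, 4 and 7 members were called in Experiments A and B and the 3 cell comparisons; Ugt1a6b in Experiment B was the call lost (adjusted p = 0.0765). Same-numbered samples correlated by only -0.032 to 0.033. In WT and DKO cells every sample correlated best with its own number, and whether these share a batch was not tested. In all, 241 of 262 alternative counts were within 1.5 times the reported count. Near the floor of 2, differences are understated, and 1 read moves a value visibly.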
